A study of Mus musculus with 25 samples.

Results

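WT31 and D4M are 2 of 5 murine melanoma lines, and the genes described here are those for which both lines lay on the same side of B16F10 luc2, RET and HCmel12. A gene was taken when WT31 and D4M each differed from each of these 3 lines with 1 sign in all 6 comparisons, at an adjusted p-value under 0.05 in every comparison. These were 2454 of 15247 tested genes (16.1%), with 1267 genes higher (8.31%) and 1187 genes lower (7.79%) in both lines. Alone, these comparisons called 72.8% (WT31 against B16F10 luc2), 73.2% (WT31 against RET), 70.4% (WT31 against HCmel12), 77.7% (D4M against B16F10 luc2), 77.1% (D4M against RET) and 72.5% (D4M against HCmel12) of the tested genes. Because the genes were chosen by the measured log2 differences of these 6 comparisons, levels of WT31 and D4M against the other lines are given as a description without a test. Differences between WT31 and D4M, and differences among B16F10 luc2, RET and HCmel12, were no criterion of the selection, and their adjusted p-values are given. The levels of all 5 lines decided which genes were taken, so that shares of such calls among the shared genes are a description as well.

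Each line was represented by 5 libraries from cultured, untreated cells harvested at a confluency of 50%, so that 10 libraries stood against 15. WT31 comes from mice with the transgene Tyr::Nras Q61K on an INK4a-/- background. D4M comes from mice with Tyr::CreER and Braf CA, among other engineered alleles, in which an inducible Cre recombinase under the tyrosinase promoter activates Braf. RET carries a human RET transgene under a mouse metallothionein promoter (MT/RET), HCmel12 was established from a primary tumor of an HGF-CDK4 R24C mouse, and B16F10 luc2 is a commercial luciferase line. Of these lines WT31 belongs to the study's group of high and intermediate liver metastasis (HIM-melanoma) together with B16F10 luc2 and RET, while D4M belongs to the group of low liver metastasis (LM-melanoma) together with HCmel12, so that the genes cross this grouping. WT31, B16F10 luc2 and RET shared RPMI with 10% FCS, HCmel12 grew in a supplemented RPMI, and D4M grew in Advanced DMEM/F-12 with 5% FCS. For D4M and for HCmel12, line and medium cannot be told apart. Each line is a single culture lineage, so that p-values measure the spread between cultures of a line and not between tumors of 1 genotype.

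Library totals were between 24199083 and 25843286 counts, and correlations of log2 CPM were at least 0.9837 within a line and at most 0.9578 between lines. Melanocyte markers were checked against the label of melanoma. The summed level of 10 markers (Mitf, Sox10, Tyr, Dct and others) was between 18500 and 25900 CPM in WT31 libraries and between 12600 and 31200 CPM in B16F10 luc2, RET and HCmel12. In D4M it was between 5.88 and 54.5 CPM, and 1 marker had no count in any library. Summed levels of 10 fibroblast markers were between 615 and 1190 CPM in D4M, between 3.28 and 4.81 CPM in WT31 and between 1.47 and 92.9 CPM elsewhere. D4M replicate 1 and HCmel12 replicate 4 held the most counts of Tyr within their lines, which was noticed after the data were seen. Without both libraries, 1258 genes were higher and 1176 were lower.

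In melanocytes and melanoma, RAS proteins such as NRAS recruit and activate BRAF, which activates MEK and then ERK. ERK in turn induces transcription factors of the ETS family, cyclin D1 and feedback inhibitors of the Sprouty, SPRED and DUSP families. NRAS and BRAF mutations are the most frequent activating lesions of this cascade in human cutaneous melanoma, and the INK4a locus is a tumor suppressor that restrains the cell cycle. WT31 and D4M thus both come from models in which this cascade is activated by a mutated member, and HCmel12 and RET from models in which a growth factor or a receptor is overexpressed.

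The upstream sequences of 4 of these genes are shown as examples before the values, and were not chosen as typical of the shared genes. Grb10 and Chchd10 led the higher and the lower genes, and Braf and Ndufb2 are a pair of neighbours on chromosome 6, both lower in WT31 and D4M. Each sequence covers 250 bases before and 50 bases after the start of transcription in RefSeq (GRCm38.p6), is written 5′ to 3′ on the strand of the gene, and has CG dinucleotides in capitals. Grb10 is at chr11:12037371-12037670 (minus strand, 45 CG dinucleotides), Chchd10 at chr10:75932880-75933179 (plus strand, 5), Braf at chr6:39725414-39725713 (minus strand, 30) and Ndufb2 at chr6:39592315-39592614 (plus strand, 14).
Grb10: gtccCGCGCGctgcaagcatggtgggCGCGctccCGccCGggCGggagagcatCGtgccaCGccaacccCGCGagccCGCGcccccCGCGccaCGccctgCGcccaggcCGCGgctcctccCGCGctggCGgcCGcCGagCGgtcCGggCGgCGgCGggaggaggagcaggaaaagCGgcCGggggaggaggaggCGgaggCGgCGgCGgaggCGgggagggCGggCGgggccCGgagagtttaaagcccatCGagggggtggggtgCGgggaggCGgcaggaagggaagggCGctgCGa
Chchd10: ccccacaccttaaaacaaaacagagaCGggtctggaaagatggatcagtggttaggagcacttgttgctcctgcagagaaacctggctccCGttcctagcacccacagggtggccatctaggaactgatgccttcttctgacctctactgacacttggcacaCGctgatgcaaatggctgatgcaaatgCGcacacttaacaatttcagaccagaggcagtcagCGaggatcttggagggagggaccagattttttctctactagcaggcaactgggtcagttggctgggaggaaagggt
Braf: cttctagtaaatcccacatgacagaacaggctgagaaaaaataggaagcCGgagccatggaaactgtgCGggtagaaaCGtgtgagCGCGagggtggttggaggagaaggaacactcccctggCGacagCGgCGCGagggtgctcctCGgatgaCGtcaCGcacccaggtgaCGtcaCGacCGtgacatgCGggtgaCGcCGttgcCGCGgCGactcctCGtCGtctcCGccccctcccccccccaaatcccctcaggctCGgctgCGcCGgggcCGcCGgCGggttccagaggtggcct
Ndufb2: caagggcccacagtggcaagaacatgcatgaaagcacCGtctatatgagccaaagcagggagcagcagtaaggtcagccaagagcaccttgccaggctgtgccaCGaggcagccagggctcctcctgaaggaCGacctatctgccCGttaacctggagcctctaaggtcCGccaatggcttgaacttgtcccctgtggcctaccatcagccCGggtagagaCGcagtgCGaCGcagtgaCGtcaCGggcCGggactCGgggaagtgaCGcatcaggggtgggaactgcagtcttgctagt
Promoter entries were matched for 10342 of 13227 tested protein-coding genes, including 889 higher and 853 lower genes. The median number of CG dinucleotides was 21 over all matched genes, 23 in the higher and 19 in the lower genes. Among genes whose weakest difference of the 6 reached 2 on the log2 scale it was 19 in 146 higher genes and 11 in 118 lower genes. Fewer than 10 were found in 26.7% of these higher and 44.9% of these lower genes, compared with 18% of all matched genes. The letters CCGGAAG, a core of many ETS sites, occurred on either strand in 17.9% of all promoters of this length, in 11.8% of higher and in 18.4% of lower genes, and in 2.74% and 3.39% of the genes with a weakest difference of at least 2. The letters TGANTCA, the core of AP-1 sites (N is any base; a palindrome, searched once for both strands), occurred in 4.92% of all promoters, in 5.29% of higher and in 5.04% of lower genes, and in 8.22% (12 of 146) and 5.93% (7 of 118) of those with a weakest difference of at least 2. None of the 4 promoters printed above holds either motif.

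The genes with the largest separation were close to silent on 1 side. The difference of a gene is ranked by the weakest of its 6 log2 differences, so that a leading gene was far from every other line in both WT31 and D4M. The 12 leading higher genes were Grb10, Gas1, Igfbp3, Prrx1, Pthlh, Ddx3y, Flrt2, Eif2s3y, Chst2, Lpar1, Cadps and Fbn2. Grb10 encodes an adaptor that binds insulin and other growth factor receptors and is imprinted. The 10 libraries of WT31 and D4M had between 284 and 376 CPM of Grb10 (median 325), and the 15 other libraries had between 0 and 0.243 CPM, with at most 6 counts in a library. WT31 and D4M themselves did not differ in Grb10 beyond their spread, with 306 ± 19 and 336 ± 33 CPM (mean ± SD, n = 5) and an adjusted p of 0.15 in limma's test.

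The other 11 leading higher genes differed between WT31 and D4M. Gas1, a membrane protein that binds Hedgehog ligands, had between 30 and 95.6 CPM (median 44.6) in WT31 and D4M and at most 1 count in any other library. Igfbp3, which binds insulin-like growth factors, had 92.5 ± 14 CPM in WT31 and 5296 ± 604 CPM in D4M, a log2 difference of -5.84 between them (adjusted p = 4.1e-24). In RET, replicate 5 held 33 counts of Igfbp3 (1.27 CPM), while the other 4 RET libraries held none. Prrx1, a homeobox factor of mesenchymal cells, had between 141 and 414 CPM (median 250.3) in WT31 and D4M and at most 0.239 CPM elsewhere. Pthlh, a parathyroid hormone-like peptide, was the clearest of the 12 in the other direction, with 82.4 ± 15 CPM in WT31 and 28.7 ± 7.8 CPM in D4M (log2 difference 1.54, adjusted p = 4.7e-12). Lpar1, a receptor for lysophosphatidic acid, Flrt2, an adhesion and guidance protein, Chst2, a sulfotransferase, and Fbn2, a fibrillin, were all lower in WT31 than in D4M, with log2 differences between -1.81 (Flrt2) and -3.39 (Fbn2). No library of the 3 other lines held more than 4 counts of these 4 genes.

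The leading lower genes described here were Chchd10, Arhgap30, Pde11a, Gpm6a, Rasal3, Hoxd13, Zfp618, Pianp, Trim63, Arfgef3 and Fndc3c1. Chchd10 encodes a mitochondrial intermembrane space protein. It had between 127 and 413 CPM (median 244) in B16F10 luc2, RET and HCmel12 and between 0 and 1.69 CPM (median 0.0824) in WT31 and D4M. Within HCmel12, replicate 4 was highest with 339 CPM, and the remaining 4 ranged from 127 to 167 CPM. In DESeq2's test Chchd10, Plagl1 and Tyrp1 received no adjusted p-value. Arhgap30 and Rasal3, both of which encode GTPase activating proteins, the latter for Ras proteins, followed the same pattern. Arhgap30 had between 82.4 and 146 CPM in the 3 other lines and at most 0.462 CPM in WT31 and D4M, and Rasal3 had between 8.22 and 17.7 CPM and at most 2 counts, respectively. Pde11a, a phosphodiesterase, and Hoxd13, a homeobox gene of the distal limb, had at most 0.473 and 0.0769 CPM in WT31 and D4M and at least 40.1 and 9.59 CPM in every other library. Between WT31 and D4M, 10 of these 11 did not pass the test, all of them with at most 44 counts in a library of these lines. Pianp, a ligand of paired immunoglobulin-like receptors, was the exception with 1.41 ± 1.1 CPM in WT31 and 0.293 ± 0.58 CPM in D4M (adjusted p = 1.0e-04).

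**Figure D1:**
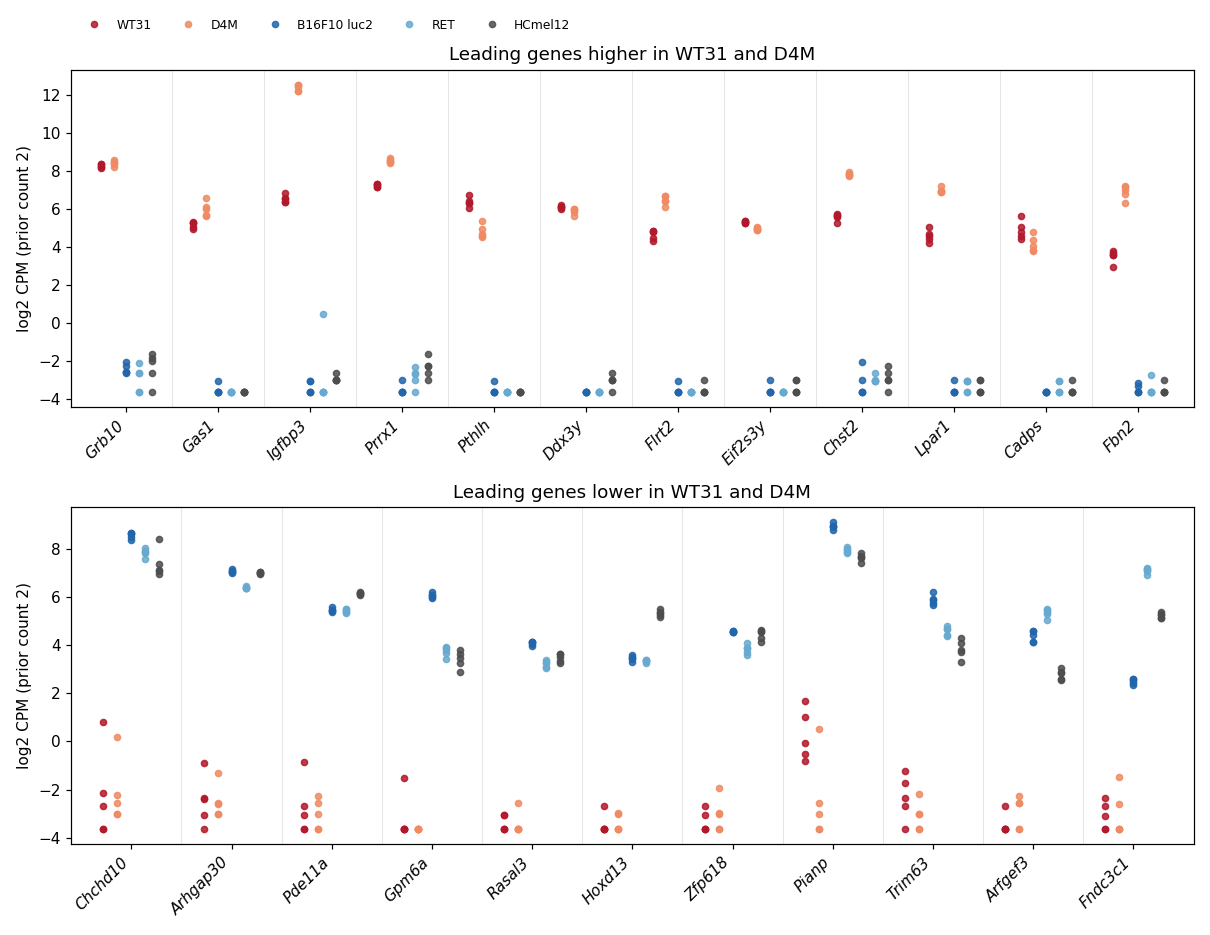
Log2 CPM (vertical axis, prior count 2) of the 12 leading higher and 11 leading lower genes, with 1 point per library and 5 libraries per line. WT31 and D4M lie on the same side of the 3 other lines without overlap in each of these genes, and they differ most from each other in Igfbp3 (log2 difference -5.84).

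Smaller differences were the rule among the 2454 genes. The weakest of the 6 differences reached 1 on the log2 scale in 449 higher and 428 lower genes and was under 0.5 in 526 and 520. All 10 libraries lay above all 15 others for 858 of the higher genes and below them for 766 of the lower genes. Over all tested genes this held for 865 (5.67%) and 771 (5.06%), nearly all of them the shared genes themselves. The selection favours such genes, so that these counts are a description. No library of the low side exceeded 3 counts for 108 of the higher and 79 of the lower genes. Protein-coding genes made up 93.5% of higher genes, 88.8% of lower genes and 86.8% of tested genes. Among the lower genes, 15 had exactly the same counts as another gene, so that they are not separate observations. At the edge of the threshold, Fdxacb1, 4930449C09Rik and Agbl3 were the last genes included (weakest difference 0.25, -1.17 and -0.35), and Samd4, Ints7 and Pnpla6 the first left out (0.26, -0.15 and 0.29).

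WT31 and D4M were compared with each other in the shared genes. In all, 76.1% of the tested genes differed between WT31 and D4M, 37.5% with a higher and 38.6% with a lower level in WT31. Of the 1267 higher genes, 314 (24.8%) were higher and 595 (47%) lower in WT31 than in D4M, and 358 (28.3%) did not pass the test. Of the 1187 lower genes, 444 (37.4%) were higher and 265 (22.3%) lower in WT31, and 478 (40.3%) did not pass, compared with 23.9% of all tested genes. For 79 of the lower genes, however, no library of WT31 or D4M exceeded 3 counts. A call between both lines was hardly possible there, and no conclusion is drawn from the share of lower genes that did not pass. The median absolute log2 difference between both lines was 0.47 in the higher and 0.40 in the lower genes and 0.66 over all tested genes. In both directions D4M was thus more often the line farther from the 3 others. These shares were not tested against the background.

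B16F10 luc2, RET and HCmel12 also differed among themselves in these genes. Over all tested genes, 51.5% differed between B16F10 luc2 and RET (25.2% higher and 26.2% lower in B16F10 luc2), 69.1% between B16F10 luc2 and HCmel12, and 67.2% between RET and HCmel12 (34% higher and 33.3% lower in RET). None of the 3 contrasts among them passed for 327 of the higher genes (25.8%) and 138 of the lower genes (11.6%), compared with 15.4% of all tested genes. For 108 of the higher genes, however, no library of these 3 lines exceeded 3 counts. A call between these lines was hardly possible there, and no conclusion is drawn from the shares of higher genes without a call. B16F10 luc2 and RET were the closest pair, with no call for 55.1% of higher and 43.6% of lower genes and 48.5% of tested genes. Higher genes were lower in B16F10 luc2 than in HCmel12 in 39.5% of cases and higher in 17.5%, where the tested genes gave 33.8% and 35.3%. Lower genes were higher in B16F10 luc2 than in HCmel12 in 46.6% and lower in 24.2%, and RET against HCmel12 gave 44.5% and 23.9%. Levels of these 3 lines entered the selection, and the shares were not tested against those of all tested genes.

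The genes altered in the lines were compared next. Nras was not among the shared genes: it had 167 ± 18 CPM in WT31, 143 ± 5.4 in D4M, 147 ± 11 in HCmel12, 108 ± 2.8 in B16F10 luc2 and 96.2 ± 1 in RET (n = 5 each), so that HCmel12 lay between WT31 and D4M. Braf (chr6:39603237-39725463) was a lower gene. It had between 21.2 and 28.3 CPM (median 26.2) in WT31 and D4M and between 49.2 and 74.8 CPM (median 56.9) in the other lines, without overlap. Its level did not differ between WT31 and D4M beyond the spread (24.8 ± 2.7 and 26.5 ± 1.1 CPM, adjusted p = 0.25), although Braf was engineered only in the mice from which D4M was derived. Its 6 log2 differences were between -1.0 (D4M against B16F10 luc2, SE 0.07) and -1.51 (WT31 against HCmel12, SE 0.07). The counts are per gene and do not separate mutant from wild-type alleles.

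Cdkn2a, the INK4a/ARF locus, was not a shared gene. It was detected at 203 ± 18 CPM in HCmel12 and 2.83 ± 0.24 CPM in WT31, at 0.0614 ± 0.049 CPM in D4M, and without any count in B16F10 luc2 and RET. Cdk4 had between 518 and 688 CPM in all 25 libraries, Trp53 had between 182 and 270.5 CPM, and neither was shared. Hgf was highest in HCmel12 (94.8 ± 14 CPM), with 2.63 ± 0.87 CPM in D4M. Mouse Ret was removed by the filter on low counts.

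Of 30 tested genes of the RAS to ERK cascade, 3 were higher (10.0%) and 2 lower (6.67%), close to the shares over all genes. Map2k1, which encodes MEK1, was higher with between 124 and 148 CPM (median 130.1) in WT31 and D4M and between 84.7 and 110.3 CPM (median 95.7) elsewhere, and WT31 and D4M did not differ beyond the spread (adjusted p = 0.29). Ksr1, a scaffold of the cascade, had 22.8 ± 2.2 CPM in WT31 and 13.5 ± 1.9 in D4M but also 11.4 ± 2.2 in HCmel12, so that its libraries overlapped. Ksr1 was no longer shared after 14 of the 25 libraries were left out singly, with library size alone as the scaling, with edgeR or with TPM. Rras2, a RAS relative, was nearly absent from HCmel12 (0.00814 ± 0.018 CPM) and exceeded the level of RET by 0.22 (WT31) and 0.57 (D4M) on the log2 scale. It was lost without 1 of 5 single libraries (WT31 replicates 3, 4 and 5, RET replicates 1 and 5). Besides Braf, Rasgrp3, an exchange factor that activates RAS, was lower, with 2.95 ± 0.93 CPM in WT31 and 0.328 ± 0.18 in D4M against 89.1 ± 10 in B16F10 luc2, 61.4 ± 2.4 in RET and 4.31 ± 1 in HCmel12. Its weakest difference, WT31 against HCmel12, was -0.57 and was lost without WT31 replicate 1 or 5 or HCmel12 replicate 1 or 4.

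The shared genes downstream of ERK were all higher. Of 25 tested ERK output and feedback genes, 8 were higher in both lines (32.0%) and 0 were lower, compared with 8.31% and 7.79% of all tested genes. All 6 differences were above 0 in 9 of them, the 8 higher genes included, and below 0 in 1. Over all 15247 tested genes these were 2256 and 2204. The median over the 25 genes of the mean of the 6 log2 differences was 1.82, compared with 0.01 over all tested genes. Etv1, an ETS factor, had between 124 and 163 CPM (median 152) in WT31 and D4M and between 10.9 and 27.7 CPM (median 15.4) in the 15 other libraries. Ccnd1, which encodes cyclin D1, had between 1509 and 2744 CPM (median 2034) against between 207 and 595 CPM (median 344). Spry4, a Sprouty feedback inhibitor, had between 88.8 and 243.5 CPM (median 166) against between 1.62 and 44.7 CPM (median 4.54). In these 3 genes no library of WT31 or D4M overlapped with another line.

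Etv4, another ETS factor, followed with 109 ± 21 CPM in WT31 and 90.2 ± 9.3 in D4M, against 38.5 ± 5.7 in HCmel12, 5.37 ± 2.2 in B16F10 luc2 and 3.63 ± 0.73 in RET. Spry4 and Etv4 did not pass the test between WT31 and D4M (adjusted p = 0.28 and 0.066), whereas the other 6 were lower in WT31 than in D4M. Over all 1267 shared higher genes, 47% were lower in WT31 and 28.3% did not pass. HCmel12 was the nearest of the 3 other lines in Spry4 and Etv4, at 35.4 ± 6.4 CPM for Spry4 against 4.92 ± 2 in B16F10 luc2 and 2.46 ± 0.72 in RET. Spred1, a SPRED inhibitor of RAS activation, had 237 ± 11 CPM in WT31 and 361 ± 21 in D4M against between 78.4 and 113.7 CPM in the other libraries. Elk3, an ETS factor of the ternary complex family, and Ier3, an immediate early gene, had medians of 187 and 81.8 CPM in WT31 and D4M and of 50.4 and 23.9 CPM in the others, without overlap. Spred2 was the weakest of the 8 (weakest difference 0.26), its libraries overlapped, and it was lost without WT31 replicate 2, 3 or 5 or HCmel12 replicate 1 or 4. Of the transcripts of Etv1, 9.97% of 31-base sequences also occur in transcripts of other genes.

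**Figure D2:**
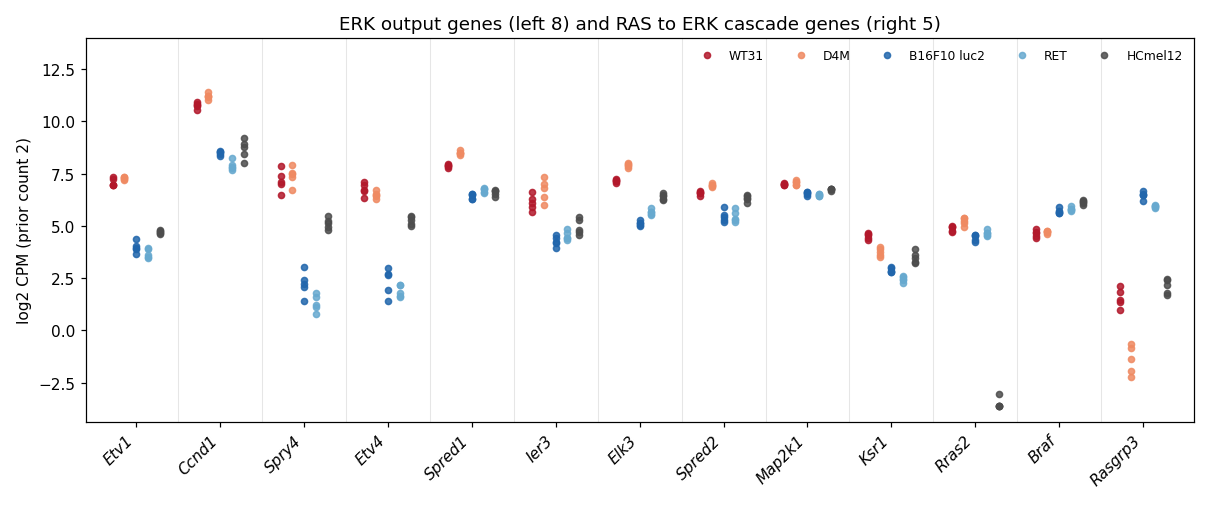
Log2 CPM (vertical axis, prior count 2) of the 8 shared ERK output genes and the 5 shared genes of the RAS to ERK cascade, with 1 point per library and 5 libraries per line. WT31 and D4M lie above the other lines without overlap in Etv1, Ccnd1, Spry4, Etv4, Spred1, Ier3, Elk3 and Map2k1, overlap with another line in Spred2, Ksr1, Rras2 and Rasgrp3, and lie below all others in Braf.

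In the list of PI3K and AKT genes, 7 of 26 were higher (26.9%) and 3 lower (11.5%), compared with 8.31% and 7.79% of all tested genes. All 10 had libraries without overlap, as did 67.7% of all shared higher and 64.5% of all shared lower genes. Irs2, an adaptor of the insulin receptor, had between 41.4 and 100.2 CPM in WT31 and D4M and between 5.56 and 23.6 CPM elsewhere. Pik3r1, the regulatory subunit p85α of PI3K, had between 69.9 and 103.5 CPM against between 17.7 and 34.6 CPM. The lower genes included Tsc1 (23.2 ± 2.6 CPM in WT31 and 24.2 ± 2.7 in D4M), which restrains mTORC1, and Rictor (22.4 ± 2.5 and 24.2 ± 3 CPM), a subunit of mTORC2. In the INK4, RB and p53 list, 4 of 35 genes were higher (11.4%), among them Ccnd1, and 2 lower (5.71%). These shares were close to the 8.31% and 7.79% over all tested genes. Cdk6, a partner of cyclin D1, had between 55.6 and 104 CPM in WT31 and D4M and was nearly absent from HCmel12 (1.79 ± 0.38 CPM). E2f8, an atypical E2F, and Rb1, which encodes the retinoblastoma protein, were higher as well, with a weakest difference of 1.30 and 0.42. Cdkn1b, the CDK inhibitor p27, and Cdk2 were lower (weakest difference -0.31 and -0.24). Cdk2 was lost when the counts were scaled by library size alone, and without WT31 replicate 1, 2 or 4 or HCmel12 replicate 1 or 4.

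Of 50 cell cycle genes of S phase and mitosis, 0 were higher and 4 lower (8.0%), a lower share close to the 7.79% of all tested genes. All 6 differences were below 0 for 17 of the 50, compared with 2204 of all 15247 tested genes. The lower genes, Cdt1, Mcm2, Mcm3 and Mcm6, act in DNA replication licensing. Cdt1 had between 47.7 and 73.3 CPM in WT31 and D4M and between 70.8 and 189 CPM elsewhere, and Mcm3 had medians of 185 and 316 CPM. Without D4M replicate 1 and HCmel12 replicate 4 the list had 7 lower genes.

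Of 49 tested TGF-beta and BMP genes, 20 were higher (40.8%) and 1 lower (2.04%), compared with 8.31% and 7.79% of all tested genes. The list had 17 higher genes when scaled by library size alone and 15 with TPM. The libraries did not overlap for 14 of the 20, where the share over all 1267 shared higher genes was 67.7%. The median over the list of the mean difference was 0.81, compared with 0.01 over all tested genes. Among ligands and their binding proteins, Bmp2 had 13.6 ± 3 CPM in WT31 and 565 ± 62 in D4M and at most 0.166 CPM in any other library. Inhba, the activin A subunit, had 0.639 ± 0.16 CPM in WT31 and 105 ± 12 in D4M, with at most 2 counts elsewhere. Fst, which encodes the activin antagonist follistatin, went the other way between the 2 lines, with 21.6 ± 6.4 CPM in WT31 and 2.46 ± 1.3 in D4M (adjusted p = 2.0e-10). Ltbp1, which holds latent TGF-beta in the matrix, had between 53.5 and 405 CPM (median 209) in WT31 and D4M and between 0.83 and 16.2 CPM (median 2.03) in the others. Of downstream targets, Id1, a BMP-induced inhibitor of helix-loop-helix factors, had 34.6 ± 8.2 and 36.1 ± 12 CPM in WT31 and D4M (adjusted p = 0.92), and between 0.949 and 26.3 CPM in the others, with an overlap by B16F10 luc2. The lower gene was Nog, the BMP antagonist noggin, which had at most 1 count in any library of WT31 or D4M. Elsewhere it had between 0.0413 and 3.35 CPM (median 0.529). The lowest of those libraries also held 1 count, so that Nog was near the floor on both sides. Of the 20 higher genes 4 were higher and 9 lower in WT31 than in D4M, and 7 did not pass the test. Over all 1267 shared higher genes these shares were 24.8%, 47% and 28.3%.

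Most of the shared genes of mesenchymal and neural crest character were higher as well, while the larger part of both lists was not shared. Of 35 EMT and mesenchymal genes, 10 were higher (28.6%) and 1 lower, and of 26 neural crest and Schwann cell genes, 8 were higher (30.8%) and 1 (Ets1) lower. Over all tested genes 8.31% were higher and 7.79% lower. The 5 leading EMT genes were Prrx1, Twist2, Prrx2, Tgfbi and Twist1. Twist2, a helix-loop-helix repressor, had 5.70 ± 0.33 CPM in WT31 and 23.5 ± 3.7 in D4M and no count in any of the 15 other libraries. Twist1 had 79.1 ± 12 CPM in D4M but only 0.289 ± 0.13 in WT31, again with no count elsewhere. Sox2, a factor of neural progenitors, had 10.5 ± 2.8 CPM in WT31 and 248 ± 31 in D4M, compared with at most 3 counts in another line. Gfra1, a receptor for GDNF, was higher in WT31 (365 ± 22 CPM) than in D4M (238 ± 40 CPM, adjusted p = 1.1e-07) and had at most 5.02 CPM elsewhere. Of the 10 higher EMT genes 8 were lower in WT31 than in D4M, where the share over all 1267 shared higher genes was 47%. The summed fibroblast markers given above were lower in WT31 as well. In WT31 these sums were also below those of B16F10 luc2 and RET, and above those of HCmel12. Fap was the 1 fibroblast marker of 6 tested that was shared, at 0.393 ± 0.19 CPM in WT31 and 11 ± 4.9 in D4M, and it was lost without WT31 replicate 5 or B16F10 luc2 replicate 5. Whether other cell types contributed to these levels was not tested.

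Most of the shared extracellular matrix genes were higher, where all tested genes gave 8.31% higher and 7.79% lower. In the list of collagens and laminins 10 of 43 genes were higher (23.3%) and 1 lower, among matrix proteases and their inhibitors 12 of 47 were higher (25.5%) and 0 lower, and among integrins and other matrix receptors 8 of 33 were higher (24.2%) and 2 lower. Col12a1, a fibril-associated collagen, had between 8 and 80.2 CPM (median 26.2) in WT31 and D4M and between 0.124 and 3.19 CPM (median 0.474) elsewhere. Htra1, a secreted serine protease, had 11.4 ± 4.5 CPM in WT31 and 65.1 ± 7.7 in D4M and at most 0.373 CPM in the others. Serpinf1, the anti-angiogenic factor PEDF, was higher in WT31 (537 ± 74 CPM) than in D4M (139 ± 19 CPM) and had at most 27.5 CPM elsewhere. Itga2, the α2 subunit of a collagen receptor, had 7.28 ± 2.2 and 54.6 ± 11 CPM in WT31 and D4M and at most 2.57 CPM in the others, and Sdc3, a heparan sulfate proteoglycan, had 3944 ± 316 and 417 ± 23 CPM and at most 118 CPM. Levels in WT31 and D4M were thus above every other library in all 5 of these genes, and WT31 was below D4M in Col12a1, Htra1 and Itga2 and above it in Serpinf1 and Sdc3.

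**Figure D3:**
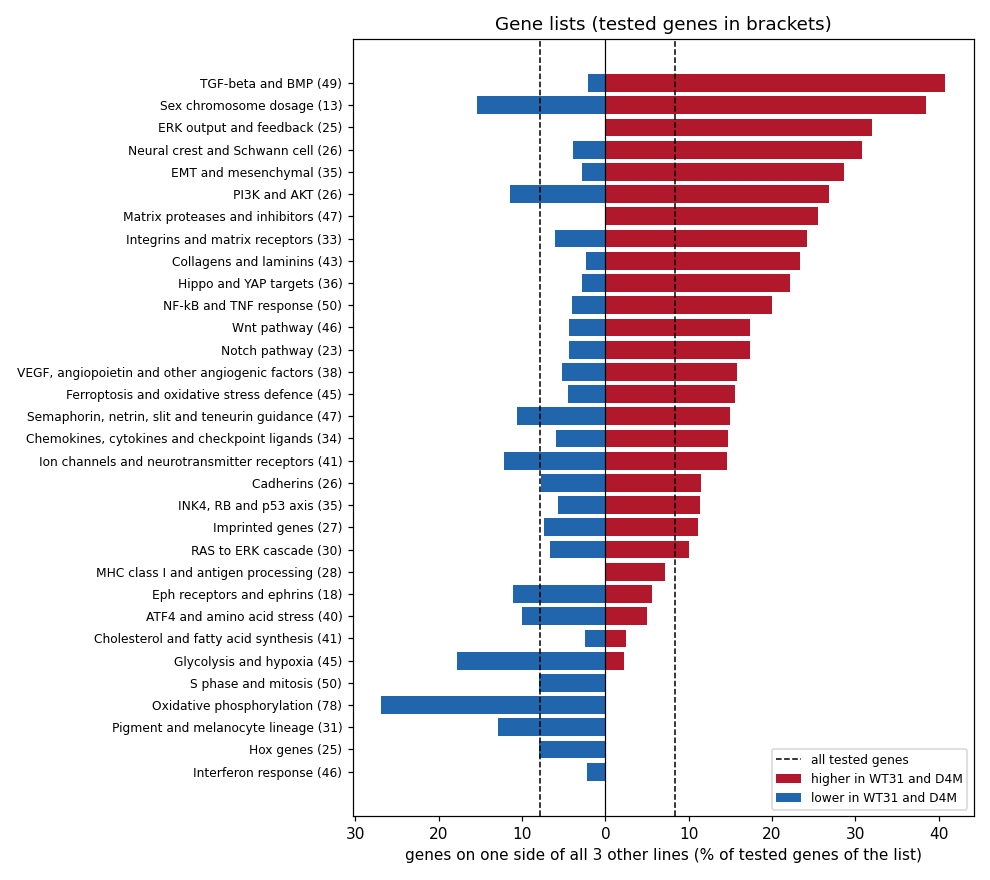
Share of tested genes of each list that was higher (red, to the right) or lower (blue, to the left) in both WT31 and D4M than in all 3 other lines, in percent, with the share over all tested genes as dashed lines. TGF-beta and BMP genes reach 40.8% higher, and oxidative phosphorylation genes reach 26.9% lower.

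Receptor and ligand lists held shared genes of both directions. Over all tested genes 8.31% were higher and 7.79% lower, and the shares of these lists were not tested against them. In the Wnt list, 8 of 46 genes were higher (17.4%) and 2 lower. Dkk2, a Wnt modulator, had 6.99 ± 1.6 CPM in WT31 and 42.0 ± 14 in D4M with at most 0.0484 CPM elsewhere, and Ror2, a receptor for Wnt5a, had 97.6 ± 12 CPM in WT31 but 0.345 ± 0.12 in D4M. In the Notch list, 4 of 23 were higher (17.4%) and 1 lower. Notch1 had 68.8 ± 16 and 69.0 ± 8.1 CPM (adjusted p = 0.82) and between 6.19 and 36.3 CPM in the others, and its target Hes1 had between 14.7 and 39.5 CPM in WT31 and D4M and at most 14.5 CPM elsewhere. Among Hippo and YAP genes, 8 of 36 were higher (22.2%) and 1 lower. Wwtr1, which encodes the coactivator TAZ, had between 259.5 and 539 CPM in WT31 and D4M against between 44.5 and 109 CPM, and its DNA-binding partner Tead1 had medians of 232 and 86.6 CPM. In the NF-kB and TNF list 10 of 50 were higher (20%) and 2 lower. Of 38 angiogenic factors and receptors, 6 were higher (15.8%) and 2 lower. Ptn, the growth factor pleiotrophin, had 196 ± 23 CPM in WT31 and 30.1 ± 9.5 in D4M and at most 0.359 CPM elsewhere, and Fgfr1 had 49.4 ± 6.8 and 248 ± 15 CPM and at most 8.22 CPM. Among 34 chemokines, cytokines and checkpoint ligands, 5 were higher (14.7%) and 2 lower (5.88%). The higher genes included Il33, an alarmin cytokine (220 ± 55 and 173 ± 58 CPM in WT31 and D4M, adjusted p = 0.065, and at most 6 CPM elsewhere). Of 46 interferon response genes, 0 were higher and 1 lower, below the shares of all tested genes.

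Oxidative phosphorylation had the largest share of lower genes of the 32 lists other than cell type markers. Of 78 nuclear genes for subunits and related factors, 21 were lower (26.9%) and 0 were higher, compared with 7.79% and 8.31% of all tested genes. All 6 differences were below 0 in 35 of them, these 21 included, compared with 2204 of all 15247 tested genes. The libraries did not overlap for 16 of the 21, where the share over all 1187 shared lower genes was 64.5%. By complex, 11 of 36 complex I genes were lower, 2 of 4 of complex II, 3 of 9 of complex III, 2 of 13 of complex IV and 3 of 15 of complex V. Ndufa5, a complex I subunit, had between 23.1 and 31 CPM (median 27.2) in WT31 and D4M and between 70.7 and 100.4 CPM (median 84.9) in the others. Ndufa4, now assigned to complex IV, was much lower in D4M (32.2 ± 2.2 CPM) than in WT31 (202 ± 6 CPM, adjusted p = 9.0e-23), and was between 344.5 and 466 CPM in the other libraries. Ndufb9 had 95.9 ± 6.6 CPM in WT31 and 86.8 ± 5.4 in D4M (adjusted p = 0.081), and at least 160.1 CPM elsewhere, and Cox5b, a subunit of cytochrome c oxidase, had medians of 119 and 249 CPM. Of the 31-base sequences of Ndufb9 and Cox5b, 17.2% and 16.1% occur in other genes. Of the 21 genes, 15 were higher in WT31 than in D4M, 0 were lower and 6 did not pass the test. Over all 1187 shared lower genes these shares were 37.4%, 22.3% and 40.3%. Of these 21 genes, 4 lie on chromosome 6, which is described below. None of 21 tested genes of the mitochondrial chromosome was shared in either direction.

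Genes of glycolysis and hypoxia were lower in 8 of 45 cases (17.8%) and higher in 1, compared with 7.79% and 8.31% of all tested genes. Of the 8 lower genes 3 lie on chromosome 6, which is described below, Slc2a3 among them. Slc2a3, the glucose transporter GLUT3, had 0.195 ± 0.17 CPM in WT31 and 2.51 ± 0.77 in D4M and between 7.27 and 68.9 CPM in the others. Car9, a carbonic anhydrase induced by hypoxia, had at most 0.369 CPM in WT31 and D4M and at least 1.91 CPM elsewhere. Pgk1, phosphoglycerate kinase, was lower with 616 ± 40 and 868 ± 53 CPM, but 54.7% of its 31-base sequences occur in other genes. Epas1, which encodes HIF-2α, was the 1 higher gene, with between 29.7 and 82.1 CPM in WT31 and D4M and between 2.12 and 15.9 CPM in the others. In HCmel12 replicate 4, Car9 and Slc2a3 were higher (3.80 and 23.7 CPM) than in the other HCmel12 libraries. The ATF4 list, with genes of amino acid synthesis and stress, had 4 of 40 lower genes (10.0%) and 2 higher ones (5.0%), close to the shares over all tested genes. The lower genes were led by Asns, asparagine synthetase (86.1 ± 15 and 110 ± 19 CPM in WT31 and D4M, and at least 149.9 CPM in the others).

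Pigment and melanocyte lineage genes were lower in 4 of 31 cases (12.9%) and higher in 0, compared with 7.79% and 8.31% of all tested genes. These shares were not tested against each other, and the lower count fell with other settings, as given below. Tyrp1, an enzyme of eumelanin synthesis, was the clearest, with 3767 ± 963 CPM in WT31 and 5.99 ± 12 CPM in D4M against between 7202 and 14310 CPM in the other libraries. Of the D4M libraries, replicate 1 had 27 CPM of Tyrp1 and the remaining 4 had at most 2.85 CPM. Tfap2a, a transcription factor of the lineage, did not differ between both lines beyond the spread (59.3 ± 9.3 and 64.2 ± 6.2 CPM, adjusted p = 0.27) and between 68.9 and 110.4 CPM elsewhere, and it was lost without D4M replicate 5 or HCmel12 replicate 3. The differences of WT31 in Mlph and Rab38, both of melanosome transport and biogenesis, were small (weakest difference -0.36 and -0.26), and neither was shared in edgeR's test, in which Tyrp1 was also lost. Mlph was lost without WT31 replicate 1, 2 or 4, RET replicate 5 or HCmel12 replicate 1, 3 or 4, and Rab38 without WT31 replicate 2 or HCmel12 replicate 1 or 4. The list thus had 1 lower gene in edgeR's test and 2 in DESeq2's test (without a value for Tyrp1), with library size alone, with TPM or without D4M replicate 1 and HCmel12 replicate 4.

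The position of the genes was not used in the selection. On chromosome 6, 155 of 776 tested genes were lower (20%) and 26 higher (3.35%), the largest share of lower genes of any chromosome with at least 30 tested genes. The lower genes were dense in its first 40 Mb, a limit chosen after the values were seen. There, 74 of 161 tested genes were lower (46.0%) and 3 higher (1.86%), compared with 13.2% and 3.74% of 615 genes beyond 40 Mb and 7.14% and 8.57% on all other chromosomes. By bins of 10 Mb with at least 30 tested genes, the lower genes made up 38.9% from 0 to 10 Mb, 44.7% from 20 to 30 Mb and 54.8% from 30 to 40 Mb, and at most 29.0% in any bin of another chromosome. Neighbouring lower genes without another tested gene between them included Chchd3, Exoc4, Lrguk, Slc35b4 and Akr1b3 (chr6:32790976-34317478) and Zfp800, Gcc1, Arf5, Snd1 and Rbm28 (chr6:28239927-29165006).

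Braf and Ndufb2, whose promoters are printed above, lie at the end of this stretch. Ndufb2 (chr6:39592574-39603382), a complex I subunit, had 32.6 ± 1.9 CPM in WT31 and 17.6 ± 1.7 in D4M and between 38.8 and 71.1 CPM in the others, so that both genes were lower. Over all 161 tested genes of the first 40 Mb, shared or not, the median log2 difference was between -0.68 (D4M against B16F10 luc2) and -1.34 (D4M against HCmel12). Those of Braf, between -1.0 and -1.51, were of similar size. Beyond 40 Mb the median was between -0.61 and -1.06 against B16F10 luc2 and RET, but 0.12 (WT31) and -0.07 (D4M) against HCmel12. Pooled over the 14461 tested genes of all other chromosomes, the medians of the 6 comparisons were between 0.01 and 0.03. Single chromosomes differed from these pooled values in both directions. The 6 medians were between 0.04 and 0.53 on chromosome 18 and between -0.08 and -0.32 on chromosome 15. The medians of the first 40 Mb were thus below 0 in all 6 comparisons, but not those of each bin. From 0 to 10 Mb (36 tested genes) the median against HCmel12 was 0.10 in WT31 and -0.57 in D4M. DNA was not measured in these libraries.

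**Figure D4:**
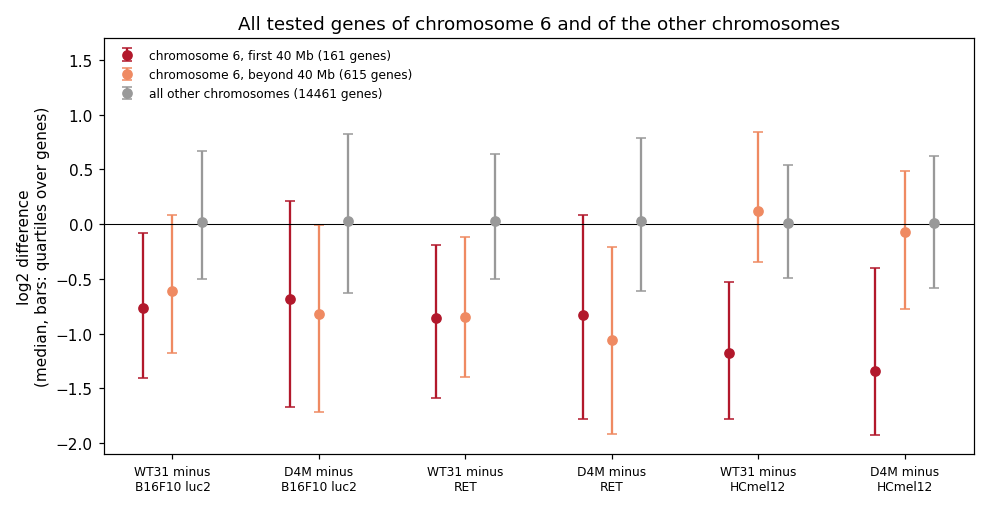
Median log2 difference (vertical axis; bars are the quartiles over genes) of all tested genes in 2 segments of chromosome 6 and on all other chromosomes, for the 6 comparisons. The first 40 Mb lie below 0 in all 6 comparisons, between -0.68 and -1.34, while the remainder of the chromosome is near 0 against HCmel12.

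On other autosomes, higher genes made up 14.4% of chromosome 13, 14% of chromosome 14 and 14.7% of chromosome 18, and lower genes 13.3% of chromosome 1 and 13% of chromosome 15. A run on chromosome 14 (chr14:70890120-73385289) held Gfra2, Fndc3a, Rcbtb2, Rb1, Lpar6 and Itm2b, all higher. On the Y chromosome 6 of 10 tested genes were higher and formed another run (chrY:818649-1286629). Ddx3y, an RNA helicase, had between 49.5 and 71.8 CPM in WT31 and D4M and at most 2 counts in any other library, and Eif2s3y had between 29.2 and 40.5 CPM and at most 1 count. Uty and Kdm5d, both histone demethylase relatives, had at least 15.1 and 19.5 CPM in WT31 and D4M and at most 0.165 and 1.10 CPM elsewhere. Uba1y, of whose 31-base sequences 60.3% occur in other genes, had 76.7 ± 3.3 CPM in WT31 and 0.55 ± 0.22 in D4M. The libraries of WT31 and D4M did not overlap with those of the other lines in any of these 5 genes. Of the 31-base sequences of Kdm5d, 6.32% occur in other genes.

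**Figure D5:**
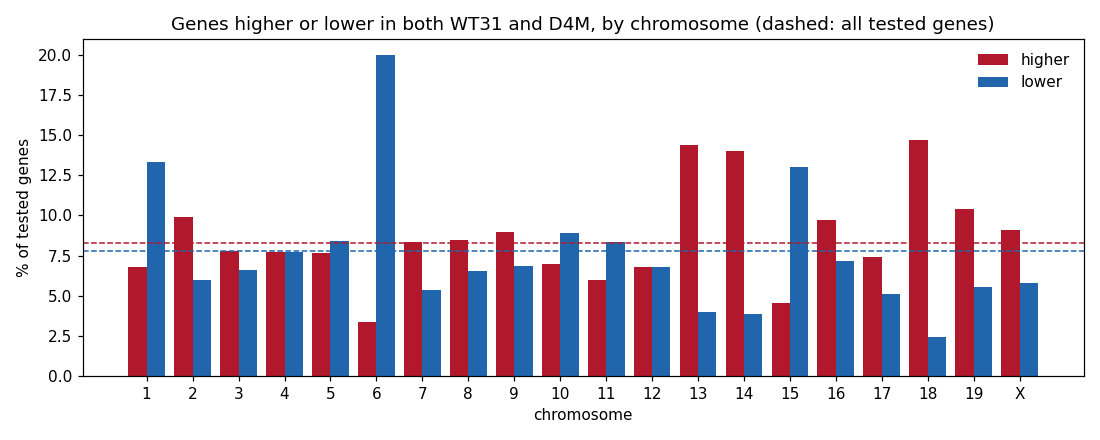
Share of tested genes (vertical axis, percent) on each autosome and on chromosome X that was higher (red) or lower (blue) in both WT31 and D4M, with the share over all tested genes as dashed lines. Chromosome 6 stands out with 20% lower genes, and chromosomes 13, 14 and 18 with between 14% and 14.7% higher genes.

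Of 27 imprinted genes, 3 were higher (11.1%) and 2 lower (7.41%), close to the shares over all tested genes. Besides Grb10, the clearest was Plagl1, a zinc finger factor, which had between 0.607 and 7.5 CPM (median 5.05) in WT31 and D4M and between 262.5 and 1140 CPM (median 662) in the others. Within WT31, replicate 4 was highest with 5.42 CPM, and the remaining 4 ranged from 0.607 to 0.912 CPM. Of 3 tested keratinocyte markers, Krt10 was shared (1.99 ± 0.31 and 2.47 ± 0.36 CPM in WT31 and D4M and no count elsewhere), and Lck, the 1 tested T cell marker, was lower, at most 0.469 CPM in WT31 and D4M and between 0.483 and 6.30 CPM in the others. None of the macrophage or endothelial markers was shared.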

How the data were processed

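RNA of 25 cultures, 5 of each line and named biological replicates in the labels, was sequenced. The labels name BGISeq-500 protocols for the libraries, whereas the study's methods name an Illumina HiSeq system. Per the submitters' processing notes, reads were trimmed with Trim Galore 0.6.4 and quantified with kallisto against GRCm38.p6. The authors deposited estimated counts per gene, which need not be whole because reads shared by transcripts are split. The authors deposited TPM values as well, which were used for an alternative only, and in which D4M replicate 1 was not used here.

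Genes were filtered by filterByExpr with the lines as groups, counts were scaled by TMM (edgeR 4.0.16) and fitted with voom and limma 3.58.1 in R 4.3.3 with all 25 libraries, and p-values of each comparison were adjusted by Benjamini-Hochberg over all 15247 tested genes. CPM values were computed from TMM-scaled library totals. Adjusted p-values in the text are limma's. edgeR's quasi-likelihood test and DESeq2 1.42.0 on counts rounded to whole numbers, other scalings, filters and thresholds, a replicate block and TPM on the log2(value + pseudocount) scale, with a pseudocount of 1 or 0.1, were tried as alternatives, and the fit was tested on simulated data.

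Named were the 12 higher and 12 lower genes with the largest weakest difference among genes with a common symbol and a mean of at least 5 CPM in each line of the higher side, up to 5 genes per list by the same measure, all shared genes of the ERK lists, the genes altered in the lines, and 3 genes on either side of the threshold. Some genes that this rule names are not reported here. The shared genes and the gene lists were chosen with earlier results of these data known. Gene positions are those of GRCm38, and shares of 31-base sequences that a gene has in common with other genes were computed from annotated transcripts. P-values measure the spread between cultures of a line.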

Additional observations from a re-analysis of the deposited data

Results flagged for a closer look

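In 32 of 439 groups of 5 libraries examined, the highest or the lowest library stood apart from the other 4 by Dixon's test on log2 CPM. Chance alone gives about 1 in 20. The values below are CPM.

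D4M replicate 1 had 1.06 for Chchd10 (other libraries 0.043 to 0.134), 0.322 for Arhgap30 (other libraries 0.044 to 0.089) and 1.33 for Pianp (other libraries 0 to 0.089). D4M replicate 2 had 145 for Lpar1 (other libraries 117 to 124).

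HCmel12 replicate 1 had 101 for Map2k1 (other libraries 107 to 110). HCmel12 replicate 3 had 30.3 for Tsc1 (other libraries 35.4 to 36.2). HCmel12 replicate 4 had 339 for Chchd10 (other libraries 127 to 167), 184 for Trp53 (other libraries 234 to 247), 3.8 for Car9 (other libraries 1.91 to 2.25), 23.7 for Slc2a3 (other libraries 7.27 to 10.1), 109 for Wwtr1 (other libraries 80.7 to 87.4) and 349 for Asns (other libraries 150 to 159).

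WT31 replicate 1 had 149 for E2f8 (other libraries 202 to 208), 18.9 for Bmp2 (other libraries 12 to 12.7), 15.6 for Sox2 (other libraries 9.15 to 9.42) and 253 for Ets1 (other libraries 173 to 185). WT31 replicate 2 had 3.23 for Cdkn2a (other libraries 2.65 to 2.81) and 260 for Wwtr1 (other libraries 268 to 272). WT31 replicate 4 had 0.269 for Gpm6a (other libraries 0), 4.33 for Dkk2 (other libraries 6.99 to 8.28) and 5.42 for Plagl1 (other libraries 0.607 to 0.912). WT31 replicate 5 had 7.5 for Fbn2 (other libraries 11.8 to 13.4).

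RET replicate 2 had 81.6 for E2f8 (other libraries 58.6 to 63.4). RET replicate 3 had 89.6 for Arhgap30 (other libraries 82.4 to 83.2), 110 for Cdkn1b (other libraries 122 to 125), 7.8 for Id1 (other libraries 0.949 to 1.54) and 4.79 for Fdxacb1 (other libraries 3.8 to 4.06). RET replicate 5 had 1.27 for Igfbp3 (other libraries 0).

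B16F10 luc2 replicate 1 had 6.19 for Notch1 (other libraries 9.29 to 11). B16F10 luc2 replicate 2 had 2.36 for Ltbp1 (other libraries 1.48 to 1.67). B16F10 luc2 replicate 3 had 0.289 for Itga2 (other libraries 0.038 to 0.083). B16F10 luc2 replicate 5 had 5.17 for Fdxacb1 (other libraries 4.24 to 4.45).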

How the results depend on the processing

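With library size alone, DESeq2 size factors, edgeR, DESeq2, TPM, no filter, a minimum of 10 counts in every library or an adjusted p under 0.01, there were between 932 and 1286 higher and between 800 and 1379 lower genes. With a minimum absolute log2 difference of 1, 449 were higher and 428 lower, 431 of the shared genes differed between WT31 and D4M (1618 in the fit as reported) and 505 among the other lines (1989). By libraries without overlap alone, 865 genes were higher and 771 lower. Higher genes made up 51.6% of shared genes, 44.9% with library size alone and 56.4% with TPM. TGF-beta and BMP genes had 17 higher genes with library size alone and 15 with TPM, oxidative phosphorylation had 20 and 15 lower genes, and chromosome 6 had 167 and 128 lower genes. Of 78 counts over lists and chromosome 6, 13 moved by over 1.5 times with TPM, 9 without D4M replicate 1 and HCmel12 replicate 4 and between 1 and 4 in the other 5 settings, all of them counts of at most 4 genes in the fit as reported.

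Without single libraries, there were between 1233 and 1294 higher and between 1138 and 1206 lower genes, of which between 1550 and 1682 differed between WT31 and D4M and between 1901 and 2013 among the others. Without D4M replicate 1 and HCmel12 replicate 4, chosen after the data were seen for their counts of Tyr, 1619 and 1965 shared genes did so. With the replicate number as a block there were 1283 higher and 1195 lower genes, with 1647 and 2012, respectively. Replicate numbers did not pair the libraries (correlation of deviations between -0.131 and 0.14 over 50 pairs, 7 of 25 libraries closest to their own number). In the 7 settings in which named genes were followed, no shared gene changed direction and between 2 (replicate block) and 11 lost the call, the latter with TPM (Ksr1, Rasgrp3, Cdkn1b, Cdk2, Nog, Mlph, Rab38, Mcm3, Fap, Lck and 4930449C09Rik). Genes with at most 3 counts on 1 side are given by their levels, since their fold change depends on the prior count.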
